A study of Bos taurus with 11 samples.

Results

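The somatotropic axis was followed in cow liver through 3 genes: the growth hormone receptor gene GHR (ENSBTAG00000001335), the insulin-like growth factor gene IGF1 (ENSBTAG00000011082) and IGFALS (ENSBTAG00000033299), which encodes the acid-labile subunit. They were taken by their identifiers and are 3 of the 21996 genes listed in the count tables, and all 3 passed the filter on low counts. The livers came from 11 Holstein-Friesian cows at about 14 days after calving. The 5 cows in mild negative energy balance (MNEB, the control group) had free access to silage with concentrate and were milked once daily, and the 6 cows in severe negative energy balance (SNEB) had a restricted diet and were milked more often. Diet and milking were set together for each group, and the cows were picked from larger groups because their energy balance was extreme. Diet, milking and energy balance therefore cannot be told apart. Each cow gave 1 polyA RNA-seq library, read on 1 to 3 lanes.

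Growth hormone from the pituitary binds its receptor on hepatocytes and, through the kinase JAK2 and the transcription factor STAT5, drives transcription of both IGF1 and IGFALS. IGF1 is the hormone that the liver then releases, and the acid-labile subunit holds IGF1 in the circulation in a complex with a binding protein. In high-yielding cows after calving the liver becomes less responsive to growth hormone, which is known as uncoupling of the axis. Cattle also make GHR transcripts from several first exons, one of them used mainly in liver, and counts per gene do not separate these.

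Lanes of a cow were summed, and levels are CPM, counts scaled to the same number of reads on genes in every cow, after TMM scaling, which corrects for differences in library composition. Totals ran from 1774011 to 4005322 reads on genes in MNEB cows and from 1869837 to 6852142 in SNEB cows. Gene lengths were not used, so levels are compared between cows and not between genes. Of the 14 hepatocyte markers on a fixed list, 0 could be matched to an identifier, so the tissue label was not checked by them. In whole liver, fewer cells of a type and less RNA per cell cannot be told apart.

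IGF1, the hormone, fell most clearly of the 3 genes. MNEB cows 1 to 5 had 37.8, 57.7, 49.1, 26.9 and 30.3 CPM. SNEB cows 1 to 6 had 4.31, 20.0, 4.29, 4.04, 6.20 and 8.26 CPM. The highest SNEB cow was still under the lowest MNEB cow, and 5 of the 6 SNEB cows were under 10 CPM, whereas SNEB2 stood well above the others of its group. The group means were 40.3 ± 12.9 CPM (SD, n = 5) and 7.86 ± 6.18 CPM (SD, n = 6), so that the SNEB mean was 19.5% of the MNEB mean. IGF1 fell by 2.40 on the log2 scale (SE 0.39), with a p of 0.0142 in the edgeR quasi-likelihood test after adjustment by Benjamini and Hochberg over 13960 genes. Only 15 of the genes tested had a lower log2 fold change. At the limit used, an adjusted p under 0.1, edgeR called 0.544% of all genes in either direction and 0.215% as lower in SNEB. All SNEB cows lay below all MNEB cows in 0.537% of the genes.

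The depth behind IGF1 was small in the SNEB group. The gene had 83 to 154 reads in an MNEB cow and 8 to 48 in a SNEB cow. With 95% exact Poisson intervals, which cover counting error only, SNEB3 at 8 reads lay between 1.85 and 8.46 CPM and SNEB4 at 28 reads between 2.68 and 5.84 CPM. The intervals of the 5 lower SNEB cows overlapped, though those of SNEB4 and SNEB6, which went down to 5.57 CPM, hardly did. Overlap of intervals does not by itself show that an order is within counting error. The intervals also overlapped at the narrowest gap between the groups: SNEB2 reached up to 26.6 CPM and MNEB4 went down to 21.6 CPM.

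IGFALS, the acid-labile subunit, fell by nearly as much as IGF1 and ranged more widely between cows. MNEB cows 1 to 5 had 153, 386, 188, 129 and 166 CPM. SNEB cows 1 to 6 had 11.4, 94.3, 19.8, 9.52, 67.2 and 41.9 CPM. The groups did not overlap, but MNEB2 stood far above the other MNEB cows and the SNEB cows were spread over a 9.90-fold range, against 4.96-fold for IGF1 and 2.14-fold for GHR in the same cows. The SD was 50.6% of the mean in MNEB and 84.0% in SNEB cows, against 32.0% and 78.7% for IGF1. The IGFALS level of a single library also differed by 1.50-fold to 2.28-fold between flow cells, as described with the lanes, and the part of this in the spread was not tested. The means were 204 ± 103 CPM (SD, n = 5) and 40.7 ± 34.2 CPM (SD, n = 6), and IGFALS fell by 2.34 on the log2 scale (SE 0.52, edgeR adjusted p = 0.0956). This call was close to the limit. It was kept without MNEB1, SNEB2 or SNEB5 and was lost without any 1 of the other 8 cows, with log2 fold changes from -2.76 to -1.99 and edgeR adjusted p-values from 0.0479 to 0.198. IGFALS had 318 to 742 reads in an MNEB cow and 37 to 282 in a SNEB cow.

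GHR, the receptor, differed less. Its levels were 227, 330, 449, 322 and 327 CPM in MNEB cows 1 to 5. In SNEB cows 1 to 6 they were 133, 199, 285, 210, 251 and 213 CPM. MNEB1 lay below SNEB3 and SNEB5, so the groups overlapped, and the other 4 MNEB cows were above every SNEB cow. The means were 331 ± 78.8 CPM (SD, n = 5) and 215 ± 51.5 CPM (SD, n = 6), which puts the SNEB mean at 65.0% of the MNEB mean. The log2 fold change was -0.62 (SE 0.19) and did not pass (edgeR adjusted p = 0.251). Its unadjusted p of 0.00482 in edgeR ranked 267 among the 13960 genes, where IGF1 ranked 22 and IGFALS 73. Among cows read on the same flow cells (named A, B and C), MNEB4 had 322 CPM and SNEB4 210 CPM on A, MNEB3 449 and SNEB3 285 on B, and MNEB2 330 and SNEB2 199 on C. On B and C together, MNEB1 and MNEB5 had 227 and 327 CPM, and SNEB1, SNEB5 and SNEB6 had 133, 251 and 213 CPM. With the cow's number as a replicate block, which also fixes the flow cells, and without SNEB6, GHR passed at -0.63 (SE 0.09, edgeR adjusted p = 0.0492). The SNEB cow was the lower in all 5 pairs, but the numbers come from the sample labels, which name no pairs. MNEB1 lay below SNEB5, read on the same flow cells. With the flow cells alone as a term, over all 11 cows, GHR did not pass (-0.58, SE 0.16, edgeR adjusted p = 0.191). With 477 to 1455 reads in every cow, counting error was small beside the spread between cows.

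**Figure D1:**
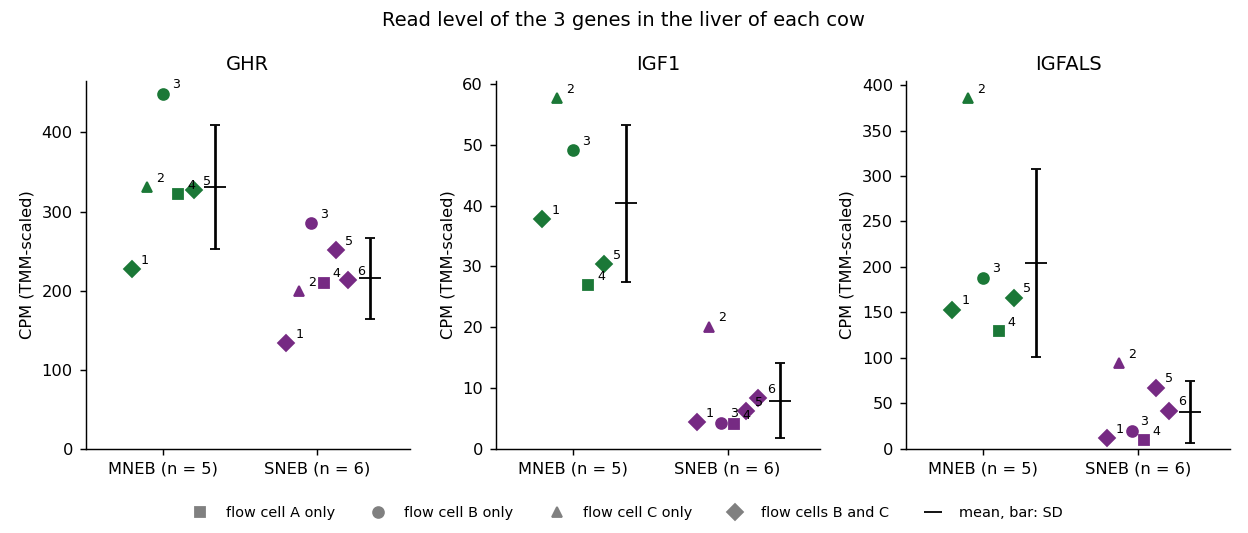
CPM after TMM scaling (linear axis from 0) of GHR, IGF1 and IGFALS in each cow, with the cow's number beside its point, the shape giving the flow cells of its lanes, and the black bar the mean and SD of the group (MNEB n = 5, SNEB n = 6). IGF1 and IGFALS are lower in all 6 SNEB cows than in any MNEB cow, with cow 2 the highest of each group, while the GHR groups overlap and cow 3 is the highest of each.

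Whether receptor, hormone and carrier differed by unequal amounts was tested on ratios of reads within a cow, which do not depend on the library total. For each 100 reads on GHR, MNEB cows 1 to 5 had 16.6, 17.5, 10.9, 8.34 and 9.27 reads on IGF1. SNEB cows 1 to 6 had 3.24, 10.1, 1.50, 1.92, 2.47 and 3.88. SNEB2 alone lay within the MNEB range. The log2 ratio of IGF1 to GHR averaged -3.06 ± 0.48 (SD, n = 5) for MNEB against -4.97 ± 0.95 (SD, n = 6) for SNEB, a difference of -1.92 (SE 0.44; two-sided exact permutation test over the 462 splits, p = 0.0130, adjusted over the 3 ratios 0.0195). In the group means IGF1 was thus lower relative to GHR in the SNEB cows, while single cows of the 2 groups overlapped with lanes summed.

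IGFALS against GHR gave a like result. For each 100 reads on GHR there were 67.3, 117, 41.8, 40.1 and 50.9 reads on IGFALS in MNEB cows 1 to 5. In SNEB cows 1 to 6 there were 8.52, 47.4, 6.95, 4.54, 26.8 and 19.6. SNEB2 was again the cow within the MNEB range, and SNEB5 and SNEB6 lay between it and the 3 lowest. The log2 ratio averaged -0.78 ± 0.63 (SD, n = 5) for MNEB against -2.86 ± 1.29 (SD, n = 6) for SNEB, a difference of -2.08 (SE 0.60; two-sided exact permutation test, p = 0.0130, adjusted over the 3 ratios 0.0195). With any 1 cow left out, both ratios to GHR kept an exact permutation p of 0.0286 or less.

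The hormone and the carrier did not differ detectably from each other in their response. The log2 ratio of IGFALS to IGF1 averaged 2.28 ± 0.33 (SD, n = 5) for MNEB against 2.12 ± 0.79 (SD, n = 6) for SNEB, a difference of -0.16 (SE 0.35; two-sided exact permutation test, p = 0.688). This p does not show that both fell alike. The MNEB cows lay between 1.93 and 2.74. SNEB cows ran from 1.22 in SNEB4 to 3.41 in SNEB5, beyond the MNEB cows on both sides.

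**Figure D2:**
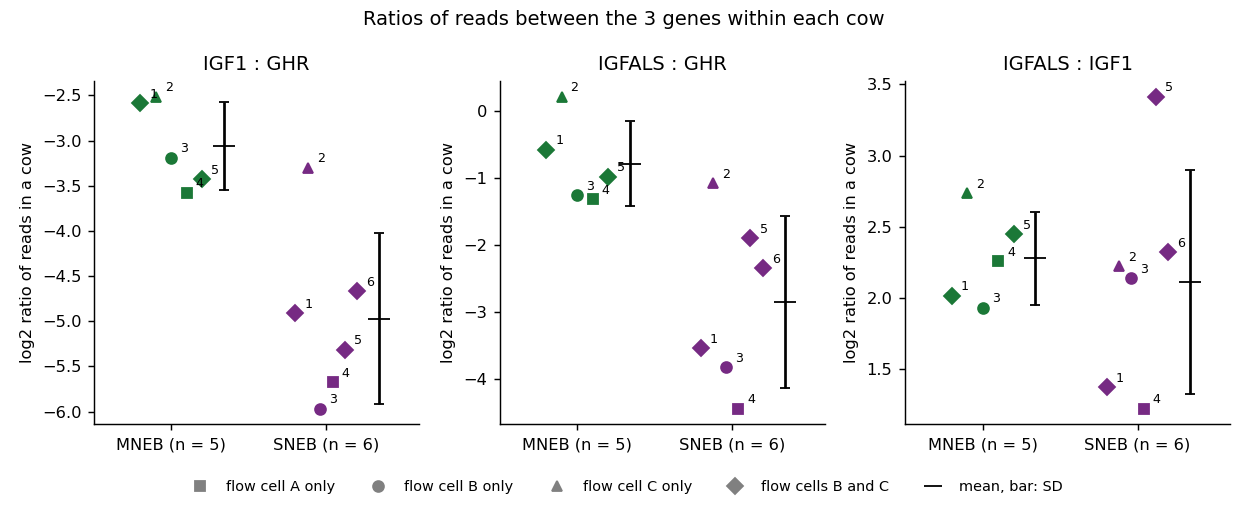
Log2 ratios of reads between pairs of the 3 genes in each cow (0.5 reads added to each gene), with cow numbers, shapes for flow cells, and bars for mean and SD (MNEB n = 5, SNEB n = 6). Both ratios to GHR are lower in SNEB cows apart from SNEB2, whereas the SNEB cows lie on both sides of the MNEB cows in the ratio of IGFALS to IGF1.

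With lanes summed, IGF1 and IGFALS went together across cows within the groups, and no relation of either with GHR was detected. The values differed over the fewer cows of 1 flow cell, as given with the flow cells. Correlations were taken over 11 cows on log2 CPM after subtracting each cow's group mean, with p from 100000 permutations within the groups. For IGF1 with IGFALS, Pearson's r was 0.84 (permutation p = 0.00102, adjusted over the 3 pairs 0.00306) and Spearman's rho 0.85 (permutation p = 0.00238, adjusted 0.00714). Without MNEB2 and SNEB2, the cows farthest from the median of IGF1, r was 0.71 (permutation p = 0.0371), and in the 6 SNEB cows alone it was 0.83 (exact permutation p = 0.0194, adjusted over the 3 pairs 0.0583). For IGF1 with GHR, r was 0.08 (permutation p = 0.822) and rho 0.13 (permutation p = 0.721), and r was 0.26 without the same 2 cows. For IGFALS with GHR, r was 0.28 (permutation p = 0.470) and rho 0.34 (permutation p = 0.346), and r was 0.32 without SNEB2 and SNEB5, the cows farthest from the median of IGFALS, and -0.013 without SNEB1. With only 11 cows, these p-values do not show that GHR was unrelated to either gene.

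**Figure D3:**
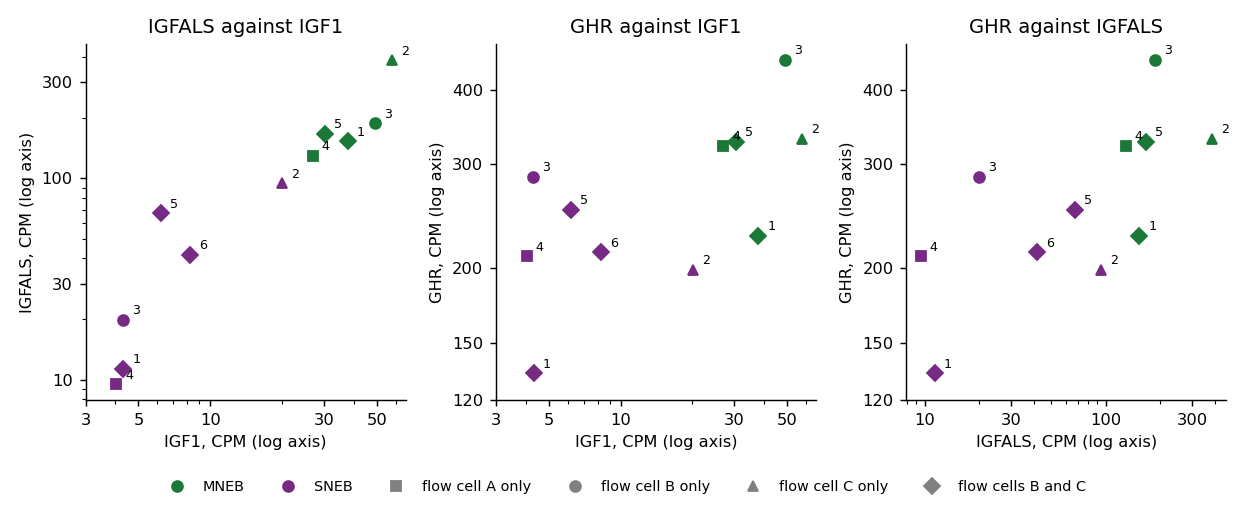
CPM of one gene against another in each cow (both axes logarithmic), with cow numbers, colours for the groups and shapes for flow cells. IGFALS climbs with IGF1 in both groups, while SNEB1, SNEB3 and SNEB4, all between 4.04 and 4.31 CPM of IGF1, range from 133 to 285 CPM of GHR.

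IGF1 and IGFALS were also each other's nearest gene. Among the 11846 other genes with a mean of at least 10 reads per cow, IGFALS had the highest Pearson correlation with IGF1 over the 11 cows (r = 0.94), and IGF1 the highest with IGFALS. The difference between the groups enters these values, so they are a description with no p. After the group means were taken out, IGFALS ranked 2 for IGF1 and IGF1 ranked 5 for IGFALS (r = 0.84). GHR ranked 314 for IGF1 and 217 for IGFALS over the 11 cows, and 5116 and 2543 after the group means were taken out.

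The other named genes nearest to each member over the 11 cows were few, because names were at hand only for genes on the study's own list of changed genes. For IGF1 the only other named gene among the top 5 was SFTPD, which encodes the lectin surfactant protein D (r = 0.91). For IGFALS they were LOC522146 (r = 0.91), the fatty acid desaturase gene FADS2 (r = 0.89) and PYROXD2, an oxidoreductase gene (r = 0.88). GHR was nearest to SLC17A4 and SLC17A2, which encode organic anion transporters (r = 0.95 and 0.94), and to INTS7, which encodes a subunit of the Integrator complex (r = 0.95). Between flow cells C and B, SLC17A4, SLC17A2 and INTS7 differed by -0.28, -0.38 and -0.28 on the log2 scale, against -0.34 for GHR. The part of the flow cells in these correlations was not tested. All of the top 5 after the group means were taken out were unnamed genes, apart from IGF1 and IGFALS themselves.

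The lanes added a second source of variation to IGFALS and GHR. The lanes came from 3 flow cells, A, B and C in order of their run, and 5 libraries (MNEB1, MNEB5, SNEB1, SNEB5 and SNEB6) had 1 lane on B and 1 on C, loaded at the same concentration. In these 5 libraries IGFALS was read at 105, 130, 9.08, 48.1 and 24.5 CPM on flow cell B. On flow cell C the same libraries gave 201, 196, 13.6, 84.5 and 55.9 CPM. All 5 were higher on C, by 1.50-fold to 2.28-fold, and in 4 of them the 95% exact binomial interval of the ratio, for counting error only, stayed above 1. SNEB1, with 19 and 31 reads, was the exception (1.50-fold, interval 0.821 to 2.81).

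GHR went the other way. On flow cell B the 5 libraries had 260, 360, 145, 282 and 246 CPM, and on flow cell C they had 193, 298, 124, 226 and 189 CPM. All 5 were lower on C, at 0.742 to 0.856 of the level on B, and in 4 of them the interval stayed below 1. SNEB1 was again the exception (0.856, interval 0.725 to 1.01). No such shift was detected for IGF1. It was at 37.8 and 37.6 CPM in MNEB1, 28.7 and 31.6 in MNEB5 and 3.35 and 5.27 in SNEB1. In SNEB5 it was at 5.12 and 7.19 CPM, and in SNEB6 at 8.16 and 8.40. Its ratios ran from 0.995 to 1.58, with 4 of 5 above 1, and each interval held 1. The SNEB libraries had only 7 to 17 reads on IGF1 in a lane. Their intervals were wide (0.572 to 4.72 in SNEB1) and also held 1.75, the median ratio of IGFALS.

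In a fit of edgeR over all genes with the library as a block, chosen after these values were seen, flow cell C minus B was 0.78 on the log2 scale for IGFALS (SE 0.07, adjusted p = 4.07e-18), -0.34 for GHR (SE 0.04, adjusted p = 2.46e-11) and 0.11 for IGF1 (SE 0.14, adjusted p = 0.588). Such shifts were common. Of 13228 genes, 56.3% were called between the flow cells, 26.8% as higher and 29.5% as lower on C, so the call itself does not set the members apart. The size did for IGFALS, since only 387 genes, or 2.93%, had a larger rise, while 2883 genes lay below GHR. The members' places among all genes are in the histogram of differences between flow cells.

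**Figure D4:**
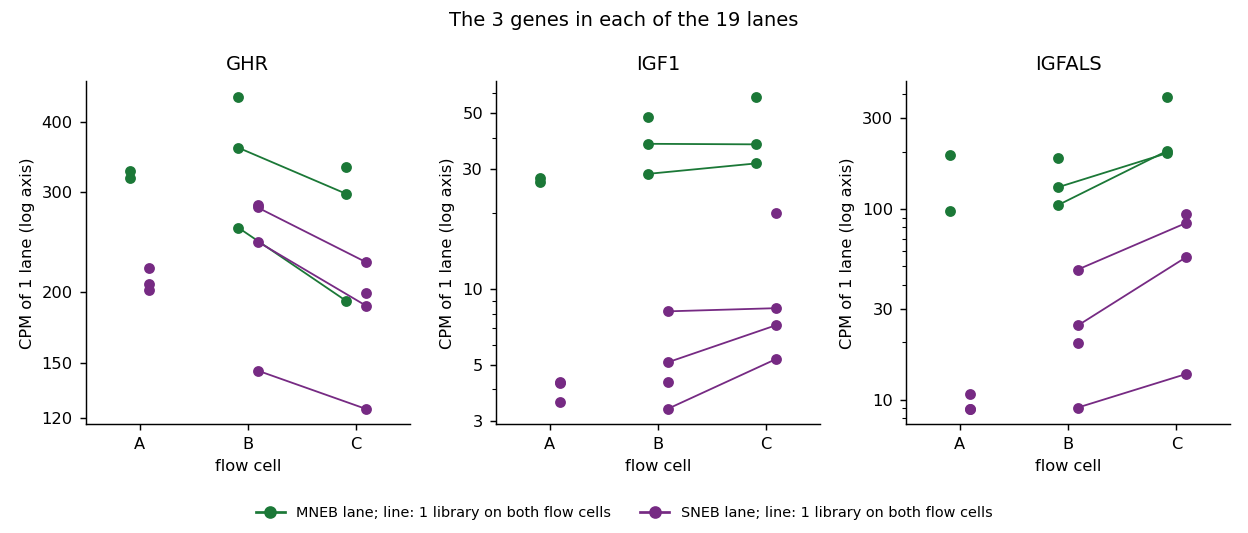
CPM of GHR, IGF1 and IGFALS in each of the 19 lanes by flow cell (logarithmic axes), with a line joining the lanes of a library read on both B and C. From B to C all 5 lines go down for GHR and up for IGFALS, and the MNEB and SNEB lanes stay apart on each flow cell for IGF1 and IGFALS.

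**Figure D5:**
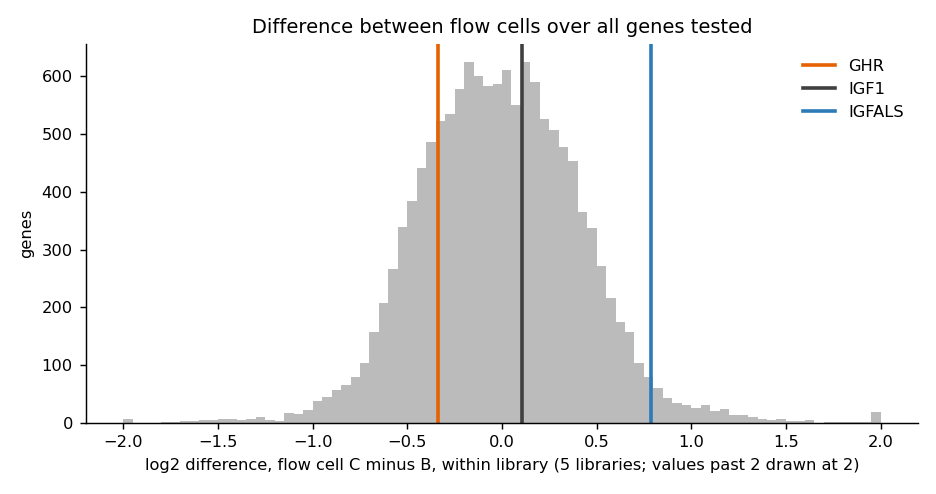
Histogram of the log2 difference between flow cells C and B within the 5 libraries read on both, over 13228 genes (horizontal axis log2, vertical axis number of genes, values past 2 drawn at 2), with lines at the members. IGFALS lies at 0.78, in the upper tail, GHR at -0.34 in the lower part and IGF1 at 0.11 near the centre.

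On flow cell A, each group had 1 cow. The 2 lanes of MNEB4, loaded at different concentrations, gave nearly the same number of IGFALS reads, 217 and 216, from 2147404 and 1221833 reads on genes. That is 98.2 and 193 CPM, a ratio of 1.97 (95% exact binomial interval 1.62 to 2.39). GHR in the same 2 lanes was 328 and 318 CPM and IGF1 26.7 and 27.7 CPM. In the first of them IGFALS was hardly above the 94.3 CPM of SNEB2. The 3 lanes of SNEB4, also at different concentrations, gave 8.98, 8.94 and 10.7 CPM of IGFALS.

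The flow cells were balanced over the groups but not over the cows. Cows with the same number were read on the same flow cells in all 5 pairs, cow 2 of each group on C alone and cow 3 of each on B alone. MNEB2 and SNEB2, read on C alone, had the highest IGFALS of their groups, and MNEB3 and SNEB3, read on B alone, had the highest GHR. MNEB2 and SNEB2 also had the highest IGF1, the gene with no detectable shift between the flow cells. The part of the flow cell in the ranking of the cows was not tested.

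Within single flow cells, a split chosen after seeing the data, the direction of each comparison was the same. On B alone (3 MNEB and 4 SNEB cows) IGFALS was 105 to 185 CPM against 9.08 to 48.1, or -2.48 on the log2 scale (SE 0.41, edgeR adjusted p = 0.0756). On C alone, again 3 against 4, it was 196 to 389 CPM against 13.6 to 94.3, a log2 fold change of -2.07 (SE 0.47) that did not pass (edgeR adjusted p = 0.271). IGF1 was 28.7 to 48.4 CPM against 3.35 to 8.16 on B, which gave -2.90 on the log2 scale (SE 0.32, edgeR adjusted p = 0.0142). On C it was 31.6 to 58.1 against 5.27 to 20.0, with a log2 fold change of -2.03 (SE 0.41) that did not pass (edgeR adjusted p = 0.173). GHR had log2 fold changes of -0.58 (SE 0.25) on B and -0.57 (SE 0.22) on C, neither of which passed (edgeR adjusted p = 0.688 and 0.646). Flow cells B and C shared 5 of these libraries, so they are not independent. With the flow cells of a cow as a term over all 11 cows, IGFALS was at -2.50 (SE 0.40, edgeR adjusted p = 0.0281), IGF1 at -2.45 (SE 0.25, 0.00765) and GHR at -0.58 (SE 0.16, 0.191).

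The ratios to GHR moved with the flow cell too. From B to C the log2 ratio of IGFALS to GHR went up in each of the 5 libraries, by 0.79 to 1.55, where the groups differed by -2.08. That of IGF1 to GHR also went up in each, by 0.40 to 0.84, where the groups differed by -1.92. On C, SNEB2 was at -3.30 in the ratio of IGF1 to GHR, below the lowest MNEB cow there (MNEB5, -3.23). Taken on 1 flow cell, the groups differed in the ratio of IGFALS to GHR by -2.07 on B and -1.75 on C. In the ratio of IGF1 to GHR they differed by -2.27 and -1.60. Each difference had a two-sided exact permutation p of 0.0571, the smallest that 3 against 4 cows allow. The correlation of IGFALS with GHR within the groups, 0.28 with lanes summed, was 0.82 over the 7 cows on B (permutation p = 0.0695) and 0.81 over the 7 on C (permutation p = 0.0274). That of IGF1 with IGFALS, 0.84 with lanes summed, was 0.51 on B (permutation p = 0.352) and 0.72 on C (permutation p = 0.210). For IGF1 with GHR it was 0.08 with lanes summed, 0.38 on B (permutation p = 0.484) and 0.43 on C (permutation p = 0.361). The correlations on 1 flow cell also rest on fewer cows and on another scaling. The part of the flow cell in their change was therefore not tested.

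Of the wider axis little could be read. A list of 41 genes held receptors, signalling and feedback genes, ligands, carriers, proteases, transcription factors and fasting hormones, and 6 of them had an identifier, all through the study's list of changed genes, so their directions are not independent evidence. Of these 6, edgeR called 2 as lower (IGF1 and IGFALS) and 1 as higher. Over all genes tested it called 0.215% as lower and 0.544% in either direction. The 6 were named only because they were on a list of changed genes, so the counts cannot be set against these shares. The feedback genes of growth hormone signalling, the IGF binding proteins and STAT5 were not analysed here.

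FGF21, a hormone of the fasting liver known in mice to dampen growth hormone signalling, was the gene that rose. It had 92.9, 51.4, 63.3, 40.6 and 87.4 CPM in MNEB cows 1 to 5. In SNEB cows 1 to 6 it had 183, 190, 183, 148, 164 and 136 CPM. The groups did not overlap, and FGF21 rose by 1.31 on the log2 scale (SE 0.20, edgeR adjusted p = 0.00953).

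A further pair of genes did not pass. IRS1, the adaptor of the insulin and IGF1 receptors, had 294 ± 57.6 CPM (SD, n = 5) on average in MNEB against 176 ± 58.1 CPM (SD, n = 6) in SNEB cows (log2 fold change -0.75, SE 0.22, edgeR adjusted p = 0.253). The liver transcription factor gene CEBPA had 82.0 ± 32.0 CPM (SD, n = 5) and 132 ± 40.0 CPM (SD, n = 6), which is 0.68 higher on the log2 scale (SE 0.26) but not called (edgeR adjusted p = 0.457), and its difference between flow cells C and B, 0.80, was as large as that of IGFALS. MARCO, a receptor of Kupffer cells and the 1 gene of 61 cell type markers with an identifier, had 139 ± 63.0 CPM (SD, n = 5) and 90.4 ± 51.5 CPM (SD, n = 6; log2 fold change -0.64, SE 0.38, edgeR adjusted p = 0.712). Its part in the results for the 3 members was not tested.

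Where the reads of the members fall is uncertain in 1 respect. In the RefSeq annotation of the ARS-UCD2.0 assembly, which is not the assembly of the counts, a long non-coding RNA gene overlaps the span of GHR and another that of IGF1, and none overlaps IGFALS. The paper describes no step of library preparation that keeps the strand, and whether the counting used strand is not given. Reads of overlapping genes may therefore be hard to tell apart.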

How the data were processed

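Liver polyA RNA of 11 cows was sequenced from 1 end on 19 lanes. Alignment by the authors was made lane by lane with Bowtie against BCM4. They discarded reads with several alignments, kept 1 read per position and counted per Ensembl gene with HTSeq. The deposited values are raw counts per gene and lane. Keeping 1 read per position can hold down the counts of abundant genes in deep lanes. Lanes were summed per cow here, and cows were grouped by label. The 13960 genes that reached 5 reads in any cow entered edgeR 4.0.16 in R 4.3.3 (TMM, quasi-likelihood test, Benjamini-Hochberg over all genes, limit 0.1). A standard error is the log2 fold change over the square root of F. DESeq2 1.42.0 and limma 3.58.1 were alternatives. Ratios (0.5 reads added) and correlations (log2 CPM, prior count 2) used scipy 1.17.1 with permutations at a limit of 0.05. Correlations within 1 flow cell used lane totals with 1 read added. Lane CPM used TMM over the 19 lanes. Tested on simulated counts, edgeR recovered 78% of genes changed 2-fold and 98% of those changed 4-fold between the groups, among 13709 genes. Between flow cells it recovered 99% and 100%, among 13074. Only genes with mean reads well above the filter were changed, so recovery at low counts was not measured. The simulation between flow cells gave all genes the same fixed spread, not that of the data.

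Members, lists and rules were chosen with earlier results of these data known. The genes named are the members, the axis genes with an identifier and, for each member, the 5 genes of at least 10 reads per cow most correlated with it. Names came from the study's list of changed genes. Of the Ensembl identifiers, 0 matched the RefSeq table.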

Additional observations from a re-analysis of the deposited data

Results flagged for a closer look

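The 3 genes and their 3 ratios were checked in each group for a cow far from the others, which made 12 checks, and chance alone marks about 1 group in 20. In SNEB2 the CPM of IGF1 was 20.0, and the gap to the next SNEB cow took up 0.736 of the range of the group, above the critical value of 0.625. In MNEB2 the CPM of IGFALS was 386, with a gap of 0.771 of the range, above 0.710. Both cows were read on flow cell C alone. Without MNEB2 and SNEB2, a setting chosen after seeing the data, IGF1 fell by 2.71 and IGFALS by 2.41 on the log2 scale (edgeR adjusted p = 0.00448 and 0.0896), and GHR was at -0.60 (edgeR adjusted p = 0.488).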

How the results depend on the processing

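With lanes of flow cell B or C alone, or without MNEB2 and SNEB2 (3 settings chosen after seeing the data), 27, 21 and 49 genes were called in place of 76. DESeq2 called 290, the fit without the cows of flow cell A 34, and leaving out 1 cow gave 40 to 125, past 1.5-fold of 76 without MNEB1 (125), MNEB3 (50), MNEB5 (40) or SNEB3 (120). IGFALS was also called by DESeq2 (-2.33, DESeq2 adjusted p = 0.0191) and by limma (-2.78, limma adjusted p = 0.0263). Neither called GHR (-0.62, DESeq2 adjusted p = 0.102, and -0.61, limma adjusted p = 0.261). IGF1 lost its call on C alone (-2.03, edgeR adjusted p = 0.173). IGFALS lost it on C alone (-2.07), without the cows of flow cell A (-2.25, edgeR adjusted p = 0.171) and with library totals alone (-2.30, edgeR adjusted p = 0.101). The first 2 of these settings also rest on fewer cows, and the cause was not tested.

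Same-numbered cows did not deviate together in every pair (r from -0.04 to 0.32), so the numbers were not taken as pairs in the reported fit, although each pair shared its flow cells. With the replicate block, without SNEB6, 83 genes were called, and GHR passed at -0.63 (edgeR adjusted p = 0.0492), beside IGF1 at -2.55 (0.0272) and IGFALS at -2.74 (0.0454). The ratios of IGF1 and IGFALS to GHR were -1.98 and -2.18 under the replicate block, each with an exact p of 0.0625, the smallest that 5 pairs allow, and -2.27 and -2.07 on B and -1.60 and -1.75 on C. The ratio of IGFALS to IGF1 turned to 0.012 without the cows of flow cell A and to 0.20 on B.

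Leaving out 1 cow gave log2 fold changes of -0.73 to -0.49 for GHR (0 of 11 calls), -2.87 to -2.24 for IGF1 (11 of 11) and -2.76 to -1.99 for IGFALS (3 of 11), and ratios of -2.25 to -1.72 (IGF1 to GHR), -2.43 to -1.76 (IGFALS to GHR) and -0.42 to 0.016 (IGFALS to IGF1). Correlations then ran from 0.77 to 0.93 (IGF1 with IGFALS), -0.16 to 0.25 (IGF1 with GHR) and -0.013 to 0.42 (IGFALS with GHR). The first was 0.51 on B and 0.72 on C. The second was -0.011 in SNEB cows alone, 0.38 on B and 0.43 on C, and the third was 0.82 on B and 0.81 on C.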
